A study of Mus musculus with 5 samples.

Results

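Collagen genes were followed in newborn mouse ovaries that lack Lhx8. The members were all probe sets, the oligonucleotide groups that each report 1 transcript, whose single gene symbol had the form Col, number, a, number. They came to 82 of the 45101 probe sets on the array and to 42 of the 18193 genes that had a probe set with a single symbol. Of these, 11 genes (21 probe sets) encode fibrillar collagens, 6 genes (12 probe sets) encode the type IV collagens of basement membranes, and 25 genes (49 probe sets) encode other types.

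All samples were whole ovaries of female mice at postnatal day 0.5 on the background C57/BL6/129SVEV Hybrid. By their labels the groups differed by genotype, LHX8 Null (3 arrays, replicates 1, 2 and 3) or WT (2 arrays, replicates 2 and 3). Some array measures, given below, also differed between the groups, and their effects cannot be told apart from those of genotype. Each array carried RNA from 1 pool of 50 ovaries from at least 25 animals, so a replicate was a pool and p-values measure the spread between pools. Lhx8 is a LIM homeobox gene expressed in oocytes, and the design compares transcript levels of ovaries with and without it. How the null allele was made is not given in the sources used here. Whole ovaries hold many cell types, so a lower or higher signal can come from fewer or more cells of a type or from less or more RNA per cell, which cannot be told apart here.

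Collagens are secreted proteins of the extracellular matrix, each built from a trio of alpha chains wound into a helix. Fibrillar collagens form the cross-striated fibrils of the stroma, type IV chains form the sheet of the basement membrane around vessels, surface epithelium and follicles, and the remaining types decorate fibrils, form filaments and networks of their own or span the cell membrane. In the ovary the stromal and smooth muscle cells make most fibrillar collagen, and oocytes are not known as a main source.

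Of the 42 collagen genes, 30 were bright enough to be tested, and 25 of these rose in Lhx8 null ovaries. None fell (limma, adjusted p below 0.05), and 1, Col25a1, was lower at an unadjusted p below 0.05. Among all 10916 genes tested, 25.6% rose, 22.3% fell and 25.3% were lower at an unadjusted p below 0.05. The median log2 difference, null minus wild type, was 1.06 over the tested collagen genes and 0.04 over all tested genes. Of the 30, 17 rose by 2-fold or more, against 8.88% of all genes. The null arrays lay above both wild type arrays for 25 collagen genes and below both for 2, against 36.0% and 31.8% of all genes. The brightness filter used the mean over 3 null and 2 wild type arrays, so it favoured genes brighter in null ovaries. Col5a3, Col13a1 and Col7a1, with wild type means of 117.5, 134.2 and 135.6, passed it only through their null arrays. Their differences could only be positive. Col9a3, with means of 180.2 on wild type and 56.4 on null arrays, was left out. The counts are thus partly set by the filter. Without it 23 of all 42 collagen genes rose and 2 fell. Each gene was represented by its brightest probe set, on the log2(signal + 16) scale after quantile normalization; differences are on that scale, and signals are the deposited intensities, which the submitters had scaled to a trimmed mean of 500 on each array.

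**Figure D1:**
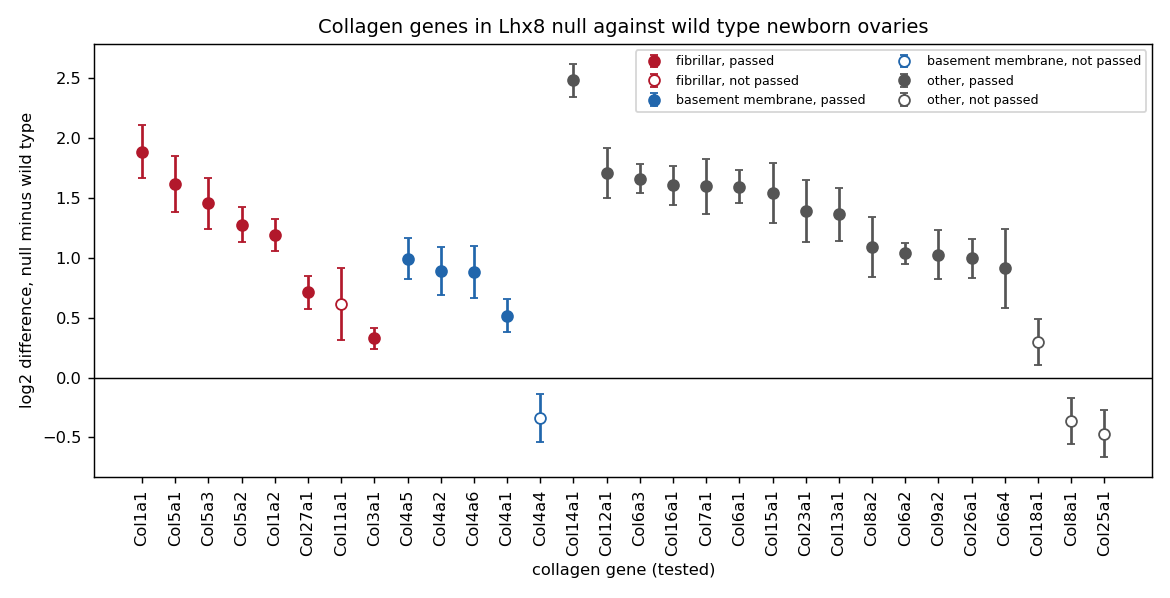
Log2 difference, null minus wild type, of each of the 30 tested collagen genes, with the standard error from limma, grouped into fibrillar (red), basement membrane (blue) and other types (grey). Filled points passed at adjusted p below 0.05: 25 lie above 0, Col14a1 highest at 2.48, and the 5 open points, Col11a1, Col4a4, Col18a1, Col8a1 and Col25a1, did not pass.

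Several facts about the arrays stand beside all these values. Lhx8 had signals of 159 to 347.4 on null and 5223 to 6450 on wild type arrays, so the labels held. The medians of the deposited arrays on the log2 scale were 7.00 to 7.18 in null and 6.80 to 6.83 in wild type ovaries, and the 3' to 5' signal ratio of Actb, which rises as RNA degrades, ran from 1.48 to 1.69 and from 1.39 to 1.43. The same ratio of Gapdh overlapped, at 0.658 to 0.802 and 0.625 to 0.666. The spiked-in control BioC had mean signals of 2396 to 2844 on null and 1038 to 1371 on wild type arrays, 2.12-fold apart on average. Their part in the results was not tested. With each array centred on its median, the median of all tested genes moved from 0.04 to -0.18, 23 collagen genes rose and 2, Col25a1 (-0.59) and Col8a1 (-0.60), fell, against 15.8% and 31.3% of all genes. As deposited, without quantile normalization, 26 collagen genes rose and none fell. Precision is limited by having 3 null and 2 wild type arrays.

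Markers of cells that make collagen moved with the collagen genes, and their part in the result was not tested. Of 8 stromal markers 7 rose and none fell (limma, by unadjusted p also 7 and 0), against 25.6% and 22.3% of all genes tested. Their summed signal was 64597 to 69698 on null and 32551 to 33700 on wild type arrays. All 5 smooth muscle markers rose, with sums of 25137 to 34090 against 7253 to 8542. The sums were 20437 to 22388 against 7961 to 8210 for 5 mesothelial markers (4 rose), 9592 to 11891 against 442.1 to 512 for 5 oviduct and mesonephric epithelium markers (5 rose), 4481 to 5026 against 2506 to 2990 for 6 endothelial markers (4 rose) and 5929 to 6356 against 1748 to 1824 for 4 macrophage markers (3 rose). In the other direction, all 5 germ cell markers fell, with sums of 5460 to 8326 against 36630 to 38983, and all 5 pregranulosa markers fell, at 15437 to 17299 against 26002 to 27916. Tcf21, a transcription factor of gonadal stroma, and Wt1, of mesothelium and somatic gonad, did not pass, with differences of -0.07 and -0.13. Of 3 bone markers 1 was bright enough to be tested, Alpl, which rose by 0.70, a call that held without null replicate 1 but not without any of the other 4 arrays. Of 4 skeletal muscle markers 2 were tested, and both rose; 1 rose without null replicate 3 or wild type replicate 2, and none without wild type replicate 3. Acta1, the skeletal actin gene, had 387.6, 192.1 and 1298 on null and 80.4 and 53.4 on wild type arrays, so null replicate 3 stood far above the rest. Summed signals were 383.2 to 418.8 against 236.7 to 276.1 for bone and 473.5 to 1855 against 192.1 to 228.6 for skeletal muscle. Without the brightness filter Myog, of muscle precursors, fell (-1.30, adjusted p = 0.026), while Ibsp, of bone matrix, did not pass (-1.24, adjusted p = 0.06). No marker had a signal of 0 on any array. All 5 oviduct and mesonephric epithelium markers, with wild type means of 59.55 (Wnt7a) to 127.95 (Wfdc2), lay below the brightness cutoff in wild type ovaries. So did Thy1, Cnn1, Des, Msln, Plvap, Alpl, Acta1 and Casq1. These markers were tested through their null arrays, so their differences could only be positive, and their counts are not support.

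The fibrillar collagens rose as a class: 7 of 8 tested genes rose and none fell, with a median of 1.23. Over all genes tested 25.6% rose and 22.3% fell. Type I collagen, the main fibril of most connective tissue, is built from Col1a1 and Col1a2. Col1a1 had signals of 16614, 11660 and 11353 on null arrays against 4278 and 2559 on wild type arrays. Every null array was more than double the brighter wild type array. Null arrays averaged 13209 ± 2953 (SD, n = 3), wild type arrays 3418 ± 1215 (SD, n = 2), and Col1a1 rose by 1.89 (SE 0.22, adjusted p = 0.00021), or 3.70-fold. Col1a2 had 28584, 24215 and 22566 on null and 10523 and 7794 on wild type arrays, again with a wide gap between the groups. It rose by 1.19 (SE 0.13, adjusted p = 0.00017), or 2.28-fold.

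Type V chains, which start fibrils and set their width, rose to a like extent. Col5a1 had signals of 6932, 5497 and 6706 on null arrays against 2815 and 1543 on wild type arrays, and rose by 1.62 (SE 0.23, adjusted p = 0.0006). Even the lowest null array lay far above the higher wild type array. Col5a2 had 8405, 8164 and 8154 against 3899 and 2851, and rose by 1.28 (SE 0.14, adjusted p = 0.00016). Its null arrays were nearly equal, and all stood well above the wild type pair. The scarcer chain gene Col5a3 had 383.2, 412.5 and 374.5 against 95.9 and 139.1, and rose by 1.45 (SE 0.21, adjusted p = 0.00063). Col27a1, of a fibrillar collagen known from cartilage, had 1004, 881.2 and 989.5 against 612.6 and 554.3, and rose by 0.71 (SE 0.14, adjusted p = 0.003), less than the type I and V chains but with no overlap.

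Col3a1, the chain gene of type III collagen in soft, distensible tissues, had the smallest difference among the collagens that passed. Its signals were 37695, 36557 and 29127 on null arrays against 21884 and 17749 on wild type arrays, near the top of the range of the arrays. It rose by 0.33 (adjusted p = 0.013), and by 0.80 with the intensities as deposited. A dimmer Col3a1 probe set, with 10793, 12894 and 12753 against 5843 and 5136, stood apart by 1.06 (adjusted p = 0.00071 over all probe sets). The call of the brightest probe set was lost without null replicate 2 (0.29, adjusted p = 0.056) and without wild type replicate 3 (0.23, adjusted p = 0.11).

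Col11a1, whose chain joins thin fibrils of cartilage and other tissues, did not pass (0.61, adjusted p = 0.12). Its null arrays spread from 255.1 to 480 and its wild type arrays from 215.1 to 227.9. Without null replicate 1, the lowest of the null arrays, the difference was 0.97 (adjusted p = 0.0017). A second bright Col11a1 probe set had 343, 311.2 and 340.6 on null and 191.2 and 183.6 on wild type arrays. Its groups did not overlap, but it did not pass either (0.63, limma adjusted p = 0.057 over all probe sets). Col2a1, the main collagen of cartilage, Col11a2 and Col24a1 were too dim to be tested: their brightest arrays read 42.7, 87.7 and 133.3. Cartilage markers gave summed signals that overlapped between the groups, 454.6 to 515.9 on null and 491.2 to 609.6 on wild type arrays, and Acan, the aggrecan gene, had 43.3 to 64.9 over all 5 arrays. Cnmd, the chondromodulin gene, had 80.8, 79.5 and 86.1 on null and 138.9 and 200.7 on wild type arrays and fell in the fit without the brightness filter (-1.11, adjusted p = 0.021), the only 1 of the 5 dim cartilage markers to pass there.

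**Figure D2:**
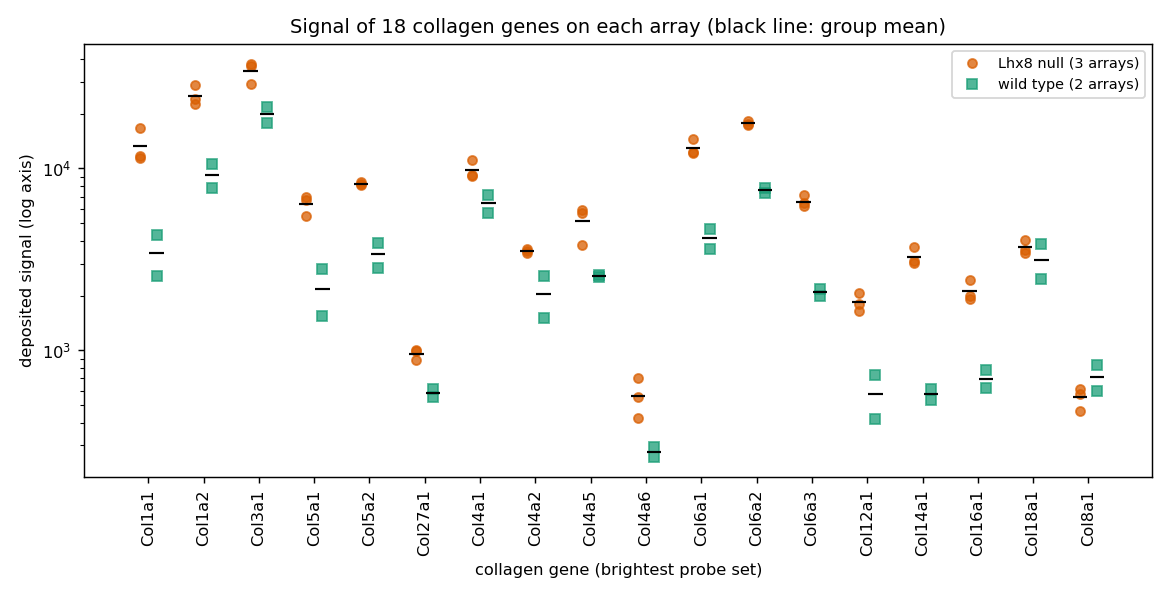
Deposited signal (log axis) of 18 collagen genes on each array, with Lhx8 null arrays as orange circles, wild type arrays as green squares and black lines at the group means. The null arrays lie above the wild type arrays in all but the last 2 genes, Col18a1 and Col8a1, whose groups overlap.

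Basement membrane collagen rose in 4 of 5 tested type IV genes, against 25.6% of all genes tested, with a median of 0.88. None reached 2-fold, against 8.88% of all genes tested, but Col4a5 stood at 1.99-fold. With 5 genes tested the class cannot be set apart from that share. Col4a5 had signals of 3771, 5723 and 5903 on null arrays against 2609 and 2532 on wild type arrays, and rose by 0.99 (SE 0.17, adjusted p = 0.0014). Null replicate 1 was the lowest of the null arrays yet lay above both wild type arrays. Its neighbour on the X chromosome, Col4a6, had 701.1, 551.7 and 423.8 against 295 and 259.2, and rose by 0.88 (SE 0.22, adjusted p = 0.0091). A second Col4a6 probe set stood apart by 1.69. Col4a1 and Col4a2 encode the most widespread type IV chains. Col4a2 had 3596, 3440 and 3535 against 2571 and 1509, and rose by 0.89 (SE 0.20, adjusted p = 0.006). The wild type pair was far apart while the null arrays were close, and the difference was 0.50 without wild type replicate 3. Col4a1 had 9195, 9099 and 11064 against 7174 and 5675, and rose by 0.52 (SE 0.14, adjusted p = 0.014), while its dimmer probe set, with 1874 to 2786 on all arrays, overlapped between the groups (0.09, adjusted p = 0.79).

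The remaining type IV genes did not move that way. Col4a4 had 303.4, 251.7 and 219.5 on null and 333.9 and 274 on wild type arrays and did not pass (-0.34, SE 0.20, adjusted p = 0.19). A second bright Col4a4 probe set stood at 0.02, with overlapping groups. Col4a3, its partner in the specialised membrane of the kidney glomerulus, was too dim to be tested, at 52.7 to 80.9. The size of the differences rested partly on wild type replicate 3. Without it Col4a1 stood at 0.33 and Col4a6 at 0.79. With 1 wild type array left, the spread between wild type pools could not be measured, so any call there rests on the spread of null arrays.

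Among the collagens of other types 14 of 17 tested genes rose and none fell, against 25.6% and 22.3% of all genes tested. Their median was 1.36. Of 9 genes of fibril-associated collagens, which coat fibrils without forming them, 4 were bright enough to be tested, and all 4 rose. The 5 dim ones include Col9a3 and Col19a1, which fell in the fit without the brightness filter described below. In that fit the median over all 9 was -0.17. Col14a1, whose product binds the fibril surface, had signals of 3010, 3117 and 3707 on null arrays against 614.9 and 535 on wild type arrays. The lowest null array was several times as bright as either wild type array, and Col14a1 rose by 2.48 (SE 0.14, adjusted p = 5.74e-06), or 5.59-fold. Its other probe sets stood apart by 2.44 and 2.47. Col12a1, a relative in tissues under tension, had 1654, 1797 and 2060 against 729 and 420.4, and rose by 1.71 (SE 0.21, adjusted p = 0.00024). With its 4 probe sets averaged it stood at 0.55 (adjusted p = 0.067), 2 of them having signals of at most 21.3 on any array. Col16a1 had 2440, 1981 and 1907 against 777.3 and 616.6, and rose by 1.60 (SE 0.16, adjusted p = 9.09e-05). Col9a2, better known from cartilage, rose by 1.03.

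Type VI collagen forms beaded filaments around cells, and its 3 main chain genes rose. Col6a3 had signals of 7104, 6182 and 6441 on null arrays against 2185 and 1996 on wild type arrays, and rose by 1.66 (SE 0.12, adjusted p = 1.79e-05). Col6a1 had 14526, 12270 and 12083 against 4650 and 3603, and rose by 1.59 (SE 0.14, adjusted p = 3.87e-05). Col6a2 had 18320, 17550 and 17280 against 7836 and 7291, and rose by 1.04 (SE 0.09, adjusted p = 3.24e-05). For all 3 the arrays within a group lay close together and the groups far apart. Col6a4 rose by 0.91 (adjusted p = 0.046), a call lost without any 1 of null replicate 1 or 2 or wild type replicate 2 or 3 (adjusted p = 0.081, 0.13, 0.095 and 0.27). Col6a5 was too dim to be tested.

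Collagens of epithelia and of the cell membrane were also among those that rose. Col7a1, of the anchoring fibrils beneath epithelia, rose by 1.60, the transmembrane collagen genes Col23a1 and Col13a1 rose by 1.39 and 1.36, and Col26a1 rose by 0.99. The other Col23a1 probe sets stood apart by 0.84 and 1.72. Col15a1, of the zone where vessel and muscle basement membranes meet fibrils, rose by 1.54. Its relative Col18a1, the source of endostatin, had 4048, 3406 and 3575 on null and 3828 and 2451 on wild type arrays, and its groups overlapped (0.30, adjusted p = 0.23). Without wild type replicate 2 Col18a1 stood at 0.64 (adjusted p = 0.023) and without wild type replicate 3 at -0.04. Col26a1 had a second, dim probe set, with at most 40.7 on any array, and stood at 0.19 (adjusted p = 0.61) when its probe sets were averaged.

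Beside Col18a1, the genes of the other types that did not pass were Col8a1 and the brain collagen gene Col25a1. The short-chain network collagen gene Col8a2 had 1630, 1172 and 1394 on null and 913.9 and 466.3 on wild type arrays and rose by 1.09, which no longer passed when wild type replicate 3 was left out (0.64, adjusted p = 0.063). Col8a1, the other chain of type VIII collagen, found in vessel walls and the eye, had 464.7, 611.3 and 575.2 against 832.7 and 596.4 and did not pass (-0.36, adjusted p = 0.16). Col25a1 had 231.4, 253.4 and 216.4 against 308.6 and 290.7; all null arrays were below both wild type arrays, but the difference of -0.47 did not pass (adjusted p = 0.077). It passed with the probe sets averaged (-1.06, adjusted p = 0.012) and without the trend in the variance model (adjusted p = 0.031). The averaged value includes a second, dim Col25a1 probe set, with 9.3, 16.8 and 58.5 on null and 81.4 and 103.9 on wild type arrays (-1.66).

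Of the 12 collagen genes too dim to be tested, 2 fell and none rose in a fit over all 18193 genes without the brightness filter, where 7.76% of dim genes fell and 5.10% rose. Col9a3, a chain of the cartilage collagen type IX, had signals of 43.7, 32.4 and 93.1 on null and 123.1 and 237.3 on wild type arrays and fell by 1.68 (adjusted p = 0.022), and a second Col9a3 probe set stood at -1.56. Col19a1, of a rare basement membrane zone collagen, had 10.2, 7.6 and 22.6 against 45.3 and 40.8 and fell by 1.22 (adjusted p = 0.034), all signals near the floor of the array. In the limma fit over all probe sets the same Col19a1 probe set did not pass (adjusted p = 0.053). The other Col19a1 probe sets stood at -0.72 and 0.15, with overlapping groups. At the same filter setting Col3a1 and Col6a4 no longer passed, and 23 of all 42 collagen genes rose and 2 fell, against 15.8% and 15.2% of all genes.

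Probe sets of one collagen gene mostly moved together. In a fit over all 45037 probe sets, 10.7% were higher and 10.3% lower. Of the 48 collagen probe sets above the brightness cutoff 35 were higher and none lower, against 19.1% and 17.9% of all bright probe sets. Of the 34 below it, 3 were higher and 2 lower, against 4.04% and 4.28%. Among 17 genes with more than 1 bright probe set, all of the bright probe sets passed in 10, some in 3 (Col27a1, Col3a1 and Col4a1) and none in 4. Their differences within a gene were 0.01 to 0.82 apart, with a median of 0.36.

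**Figure D3:**
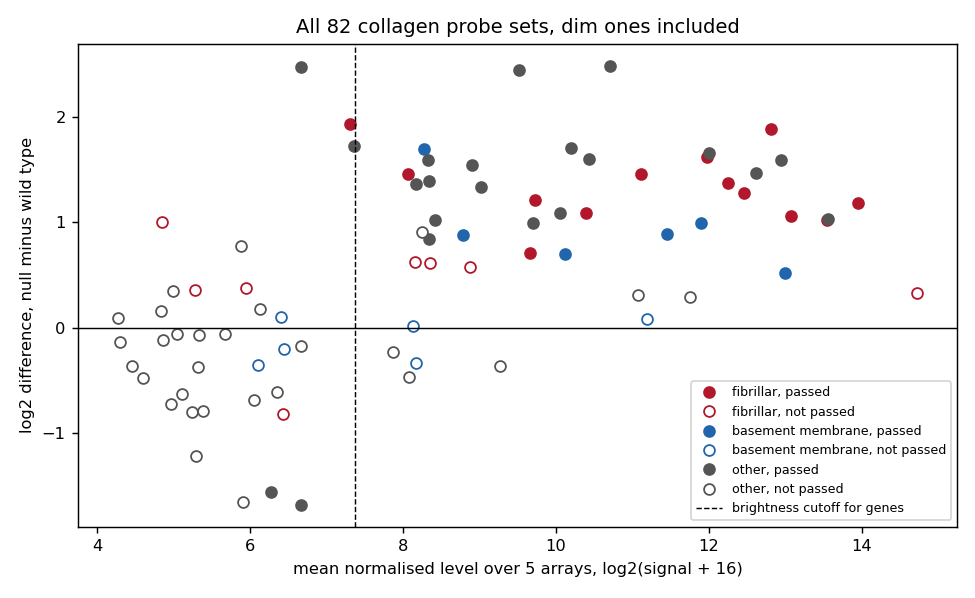
Log2 difference, null minus wild type, of all 82 collagen probe sets against their mean normalised level over the 5 arrays; colours give the class, filled points passed at adjusted p below 0.05 and the dashed line is the brightness cutoff used for genes. Right of the line 35 of 48 points passed, all above 0; left of it 5 of 34 passed, 3 above 0 and 2 below.

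Chains that build a common trimer or fibril were set against each other within each array, in 10 pairs, of which 7 had both genes tested. With 3 arrays against 2 the smallest two-sided exact permutation p is 0.1, so no pair could pass. Col1a1 minus Col1a2 was -0.65, -0.93 and -0.96 on null and -1.40 and -1.70 on wild type arrays, so the null arrays were higher by 0.70 without overlap (exact permutation p = 0.1, adjusted over the 10 pairs 0.33). Col6a1 minus Col6a2 was likewise higher by 0.56 on null arrays (exact permutation p = 0.1, adjusted p = 0.33), whereas Col6a1 minus Col6a3 overlapped (-0.07). Col8a1 minus Col8a2 was -1.86, -0.93 and -1.28 on null and -0.13 and 0.33 on wild type arrays, lower by 1.45 without overlap (exact permutation p = 0.1, adjusted p = 0.33). The pairs Col4a1 and Col4a2, Col4a5 and Col4a6, and Col5a1 and Col5a2 overlapped between the groups. These values depend on the probe set: the second bright Col1a1 probe set stood apart by 1.09, against 1.19 and 1.02 for the bright Col1a2 probe sets, and the second Col6a2 probe set by 1.47, against 1.59 for Col6a1. They describe probe sets, not the makeup of the trimers.

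**Figure D4:**
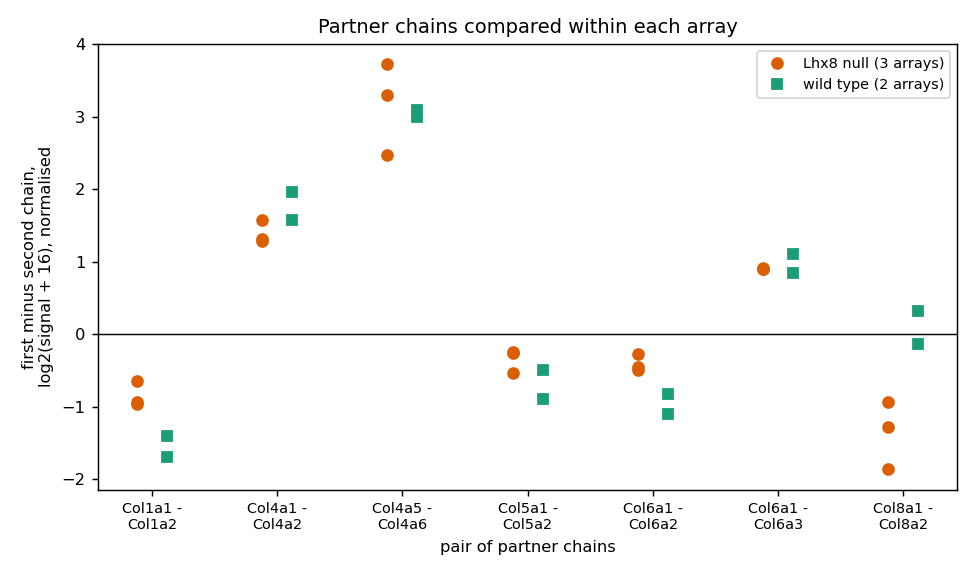
Normalised log2 level of one chain minus its partner on each array, for the 7 pairs with both genes tested; orange circles are the 3 null and green squares the 2 wild type arrays. The groups are apart for Col1a1 with Col1a2, Col6a1 with Col6a2 and Col8a1 with Col8a2, and overlap in the other 4 pairs.

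The DNA before the start of collagen genes is shown for 3 members. They are a bright fibrillar chain gene with a CCAAT motif, the fibrillar gene with the smallest rise and the type IV gene with the largest. Both rises are those of the brightest probe set after quantile normalization, and other probe sets or scalings can give another order. Sequences are RefSeq's, build GRCm38.p6, the 250 bases before the start used in the table, all on the plus strand, at chr6:4505368-4505617 for Col1a2, chr1:45311288-45311537 for Col3a1 and chrX:141475169-141475418 for Col4a5. Capitals mark CCAAT and TATAAA, searched on both strands.
Col1a2: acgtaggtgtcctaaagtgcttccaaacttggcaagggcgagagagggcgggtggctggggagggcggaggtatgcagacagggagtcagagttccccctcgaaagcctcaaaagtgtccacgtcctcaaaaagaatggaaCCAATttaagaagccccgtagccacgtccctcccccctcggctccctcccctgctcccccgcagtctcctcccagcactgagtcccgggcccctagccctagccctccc
Col3a1: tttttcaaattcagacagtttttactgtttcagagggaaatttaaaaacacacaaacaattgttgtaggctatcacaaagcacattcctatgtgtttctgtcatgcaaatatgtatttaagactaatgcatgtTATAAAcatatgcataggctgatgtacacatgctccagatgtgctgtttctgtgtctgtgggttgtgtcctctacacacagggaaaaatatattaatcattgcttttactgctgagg
Col4a5: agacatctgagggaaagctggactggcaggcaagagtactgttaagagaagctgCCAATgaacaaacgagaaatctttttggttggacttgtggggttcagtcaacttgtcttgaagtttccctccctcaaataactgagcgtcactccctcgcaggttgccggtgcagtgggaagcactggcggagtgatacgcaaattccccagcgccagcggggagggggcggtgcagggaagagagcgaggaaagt

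Of the 42 collagen genes 33 had a start in that table, with 36 windows in all. CCAAT was in 36.1% of these windows and in 33.8% of all 32851 windows, and TATAAA in 13.9% and 12.4%. GGGCGG was in 58.3% of collagen windows, Col4a5 and Col1a2 among them, and in 32.7% of all windows. TGATTG, a motif reported for LHX8, was in 11.1% and 12.7%, in Col5a3, Col4a6, Col11a1 and Col25a1, and in Col5a3, Col11a1 and Col25a1 it overlapped a CCAAT. A match describes the letters only.

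The enzymes and chaperones that make collagen rose with it, with a median of 0.85. Of 18 tested genes of synthesis and modification 13 rose and none fell (limma, 15 and 0 by unadjusted p below 0.05). Over all genes tested 25.6% rose and 22.3% fell. Crtap, a partner of prolyl 3-hydroxylase, had 4917, 5669 and 5392 on null and 2544 and 1907 on wild type arrays, and rose by 1.30 (SE 0.14). P3h4, P3h3 and P3h1, also of that enzyme family, rose by 1.32, 1.63 and 1.09, and P3h2 by 0.81. Of the factors that process and crosslink collagen outside the cell, 4 of 7 rose and none fell (5 and 0 by unadjusted p), with a median of 0.57. The lysyl oxidase genes Lox, Loxl1 and Loxl3 rose by 1.01, 0.98 and 1.28, and Pcolce, an enhancer of procollagen cleavage, by 0.57.

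Among proteoglycans and glycoproteins that sit on fibrils, 11 of 13 genes rose and none fell (12 and 0 by unadjusted p), with a median of 1.08; 3 of them, Postn, Dcn and Lum, are in the stromal marker list too. Dpt, which speeds fibril assembly, rose by 2.29 (SE 0.11), Fn1, the fibronectin gene, by 2.52, Postn by 1.81 and Fmod, a fibril-binding proteoglycan gene, by 2.99. Of 5 collagen receptor genes 2 rose and none fell (2 and 0 by unadjusted p). Over all genes tested 25.6% rose and 22.3% fell, and 5 genes are too few to set the receptors apart from that share. Ddr2, a receptor for fibrillar collagen on stromal cells, had 1662, 1718 and 1475 against 416.4 and 445.3 and rose by 1.87 (SE 0.14). Mrc2, which takes collagen up for breakdown, rose by 1.81. Ddr1, the epithelial relative of Ddr2, did not pass (-0.13), with 1569 on null replicate 1 and 4017 and 5272 on the other null arrays; without null replicate 1 it stood at 0.37. Itga1 did not pass (0.25).

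Partners of type IV collagen in the basement membrane rose in 9 of 13 cases, and 1 fell, with a median of 0.89. Over all genes tested 25.6% rose and 22.3% fell. The linker genes Nid2 and Nid1 rose by 1.61 and 0.88, and the laminin chain genes Lama4 and Lamb2 by 1.33 and 1.22. Lama1, the laminin chain of early epithelia, named after its value was seen, fell by 0.76, which no longer passed when wild type replicate 2 was left out (-0.66, adjusted p = 0.066). In the TGF-beta pathway, a known inducer of collagen genes, 10 of 15 rose and 2 fell, with a median of 0.79. The receptor gene Tgfbr2 rose by 1.74, the latent binding protein genes Ltbp4 and Ltbp1 by 1.64 and 1.61 and the target gene Ccn2 by 0.96. Smad3, a transcription factor of the pathway, and Tgfbr1, both named after their values were seen, fell, at -1.23 and -0.38. The Tgfbr1 call was lost without null replicate 2 or wild type replicate 2 or 3 (adjusted p = 0.11, 0.13 and 0.092).

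**Figure D5:**
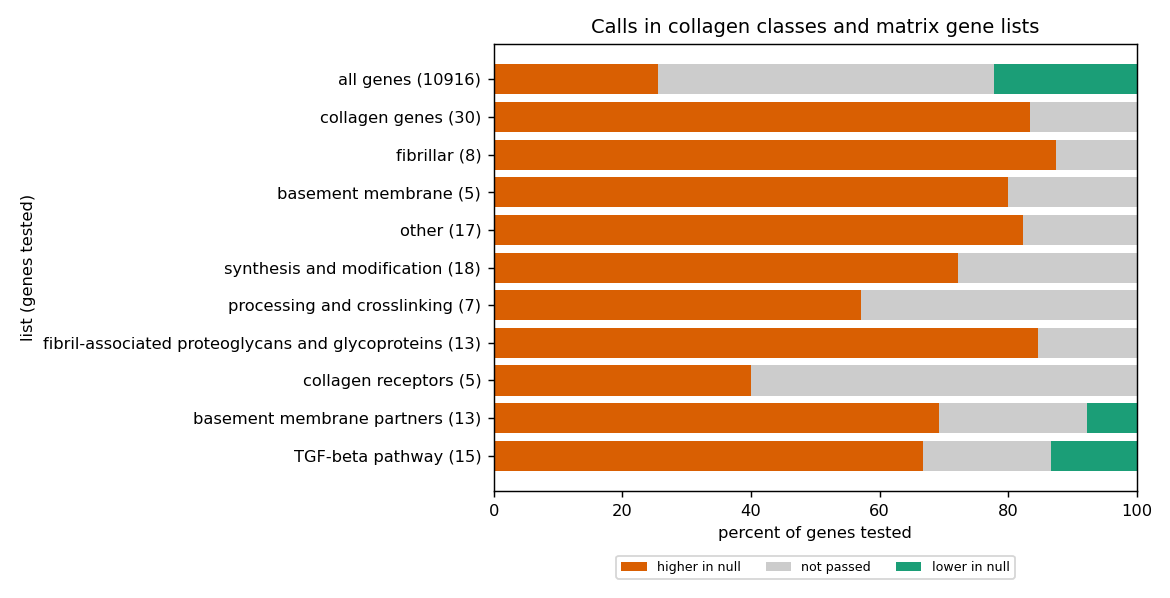
Percent of tested genes that rose (orange), fell (green) or did not pass (grey) among all genes, the collagen classes and 6 lists of collagen partner genes, with the number tested in brackets. The share that rose is 25.6% of all genes and 83.3% of collagen genes; falls occur only in the last 2 lists and among all genes.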

How the data were processed

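Each value is a linear array intensity, deposited per probe set and scaled by the authors, as equal trimmed means show. The submitters' processing notes name GCOS for wild type arrays; for null arrays no software is named in the sources used here. Symbols came from the platform's probe table, and 64 controls were dropped. After adding 16, log2 values were quantile normalised. The dimmest 40% of genes by mean (7277, cutoff signal 149.9) were not tested. Differences were tested with limma 3.58.1 in R 4.3.3 (lmFit, eBayes with trend, two-sided, Benjamini-Hochberg over all genes tested, threshold 0.05). The fit was tried on simulated arrays with few shifted genes and independent noise, which could not test the normalization or array effects. Partner chains had an exact permutation test. Members, lists and pairs were chosen with earlier results of these data known. Full statistics are given for up to 6 collagen genes per class with the smallest p, and up to 4 genes named per list by the same order; other collagens have differences, with adjusted p where a call was missed or lost. Alternatives covered scaling, added constant (1, 64), filter, probe set choice, variance model, threshold, replicate block and each array left out. Except where probe sets were averaged or the filter changed, each kept the probe sets and tested genes of the 5-array fit. Wild type replicate 1 was not used. Figures used matplotlib 3.10.9.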

Additional observations from a re-analysis of the deposited data

How the results depend on the processing

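Of the 25 collagen genes that rose, all stayed above 0 in each of the 15 alternatives that tested them, and 18 kept their call in all of those. Calls were lost at least once by Col3a1, Col4a1, Col4a6, Col6a4, Col8a2, Col12a1 and Col26a1. With 60% of genes left out as dim, 8 of the other collagens rose because fewer were tested. The number of collagen genes that fell, 0, became 2 (both of other types) with arrays centred on their medians and 2 without the brightness filter, and 1 with probe sets averaged or without a variance trend. Leaving out 1 null array at a time gave 23 to 25 collagen genes that rose and none that fell, and 4 of type IV. Of all genes tested 21% to 27.2% rose in those fits. With 1 array of either group left out, the median difference ran from 0.99 to 1.25 over tested collagen genes. Over type IV genes it ran from 0.50 to 0.93, and both lowest values came without wild type replicate 3. Counts with a wild type array left out are not given here, as only 1 wild type array would remain. Col6a1 minus Col6a3 stood at 0.0088 with intensities as deposited or median centred and ranged from -0.18 to 0.067 with 1 array left out, Col4a5 minus Col4a6 from -0.18 to 0.45, Col18a1 from -0.038 to 0.64 and Ddr1 from -0.47 to 0.37; the cause was not tested. The replicate numbers 2 and 3, the only ones in both groups, showed no link between arrays of the same number (correlation of deviations 0.0083 and 0.0078). The deviations of 2 wild type arrays mirror each other, so these values are not separate checks and cannot exclude a pairing. With the replicate block 26 collagen genes rose and Ddr1 stood at 0.36. Array number and, for dim probe sets, closeness to background limit what could be detected.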
